A study of Sus scrofa with 12 samples.

Results

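Intronic lncRNAs are long noncoding RNAs transcribed from within an intron of another gene, the host gene. Transcript comparison tools give class code i to an assembled transcript that falls wholly inside a reference intron and shares no exon with the host. The class i transcripts among the assembled pig lncRNAs were taken by that code and matched by transcript identifier to the lncRNA table. Membership follows this code alone, and the authors' own sorting of lncRNAs by location was not used. There were 209 of them on assembled chromosomes and 3 on unplaced scaffolds, which together made 1.98% of the 10706 lncRNAs in the table and 14.9% of the 1424 assembled ones. They came from 193 assembly genes. The other assembled lncRNAs were intergenic (class u, 560), antisense to exons (class x, 288), junction-sharing (class j, 281) or exon-overlapping (class o, 83).

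An intronic lncRNA can come from a promoter of its own, on either strand, or can be a stable piece of the precursor RNA of its host, and short-read libraries depleted of rRNA hold both kinds. Some are known to act on the gene that holds them, and for most no function is known. The mammalian testis transcribes an unusually large part of the genome, above all in spermatocytes and round spermatids, and lncRNAs are numerous among these transcripts. The start of meiosis at puberty therefore changes which lncRNAs a whole testis contains.

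Testes of Hezuo (HZ) and Landrace (LC) boars, removed by castration, were sequenced in 12 libraries after rRNA depletion. Group Ha was HZ at 30 days of age, Hb was HZ at 120 days, La was LC at 30 days and Lb was LC at 120 days. Each group held 3 libraries, each from a separate boar, so an exact permutation test of 3 against 3 cannot give a p below 0.1. Estimated counts on lncRNAs ran from 502340 to 633664 per library in Ha, from 540920 to 767783 in Hb, from 496269 to 595622 in La and from 639036 to 702851 in Lb.

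The mRNA table carried the markers of testis at both ages. The 8 Sertoli markers summed to 782, 751 and 973 FPKM (fragments per kilobase of transcript, scaled to the size of the library) in the Ha libraries, with INHA the most abundant over the 12 libraries, and none of the 8 was at 0 in every library. The 10 spermatid markers, led by PRM1, summed to 5.72, 7.02 and 6.73 FPKM in Ha, 5280, 5793 and 7667 in Hb, 10.8, 9.39 and 4.53 in La and 3909, 3342 and 3575 in Lb. The 30-day libraries thus held little spermatid mRNA and the 120-day libraries much, with no overlap between ages. TNP1 and SPACA3 stayed at or under 3 counts in every 30-day library.

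All 209 class i lncRNAs on assembled chromosomes of Sscrofa11.1 lay inside the span of a RefSeq gene, as their class code implies. Protein-coding genes held 172 of them, in 146 hosts, and lncRNA genes held 37, in 32 hosts. Of the coding hosts, 126 held 1 class i lncRNA, 14 held 2 and 6 held 3. The coding hosts were long genes, with a median span of 229162 nt against 19157.5 nt over the 20666 protein-coding genes of the reference. A host must span a whole class i transcript, so this choice of genes by itself favours long ones. A class i lncRNA, introns included, spanned a median of 2.42% of its host. Chromosome 3 carried 22 of them, chromosome 13 carried 20, and chromosome X carried 2.

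Most class i lncRNAs were short and simply spliced. Their exons summed to a median of 987.5 nt, with quartiles at 661 and 1938.25 nt, and 124 (58.5%) had 2 exons. The share with 2 exons was 49.6% in class u, 42.7% in class x, 14.2% in class j and 59.0% in class o. Some members were long, and 21 (9.91%) had an exon of at least 5000 nt, against 6.43%, 3.47%, 5.69% and 15.7% of classes u, x, j and o. The longest, MSTRG.734.1 inside RORA, measured 54164 nt. Plus-strand and minus-strand members were nearly even, at 108 and 104, and 138 (65.1%) carried a NONCODE identifier.

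Class i lncRNAs made up 2.48%, 1.997% and 2.29% of all lncRNA counts in the Ha libraries and 5.73%, 5.12% and 5.22% in the Hb libraries. In LC the share was 3.05%, 3.30% and 2.01% in La and 5.06%, 5.10% and 5.41% in Lb. Every 120-day library was above every 30-day library of either breed. The mean share was 3.10 percentage points higher in Hb than in Ha and 2.40 points higher in Lb than in La, each with a two-sided exact permutation p = 0.1. Between breeds it differed by 0.533 points at 30 days (exact permutation p = 0.3) and by -0.165 points at 120 days (exact permutation p = 0.5). Much of the class i counts at 120 days lay in 4 members, MSTRG.11624.4, MSTRG.12373.1, MSTRG.8296.1 and MSTRG.8296.2, left out in an alternative chosen after seeing the data. Without them the share was 2.42%, 1.95% and 2.29% in Ha and 2.89%, 2.11% and 2.87% in Hb. In LC it was 3.05%, 3.30% and 2.01% in La and 2.36%, 2.16% and 2.33% in Lb, and the ages overlapped in both breeds. The mean difference was then 0.407 points in HZ and -0.502 points in LC. Since the 4 were those with most counts at 120 days, leaving them out lowers the share at that age by construction. The members with most counts at 30 days stayed in, so these values show where the counts lay and test no age difference. In whole testis, fewer cells of a type and less RNA per cell cannot be told apart, here and in each result that follows.

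The class was largely silent in the young testis. The number of members above 1 FPKM was 24, 25 and 27 in the Ha libraries and 29, 32 and 21 in La, against 129, 99 and 109 in Hb and 101, 100 and 107 in Lb. Of the whole class, 150 had no more than 3 counts in any 30-day library, and 95 of those had 0 in all of them. Of these 150, 149 rose above 3 counts in at least 1 library at 120 days, which is 70.3% of the class. The same pattern held for 359 (64.1%) of class u, 181 (62.8%) of class x, 90 (32.03%) of class j and 14 (16.9%) of class o lncRNAs. A further 61 members were above 3 counts at both ages, and 1 member stayed at or under 3 counts in all 12 libraries. The 8 spermatocyte markers and 9 of the 10 spermatid markers were tested and higher at 120 days in both breeds, and the part of germ cell content in the class i levels was not tested.

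Only 1 member showed the reverse pattern, present at 30 days and at the floor of 3 counts at 120 days. MSTRG.20720.3, 4583 nt long and inside TCF7L2, the gene of a transcription factor of WNT signalling, had 0, 0 and 15 counts in Ha and 5, 0 and 0 in La, and 0 in every 120-day library. It was seen in only 1 boar of each breed and did not pass the count filter in any comparison. The host mRNA stood at 7.72, 7.77 and 6.80 FPKM in Ha and 1.82, 2.80 and 1.89 in Hb, lower in every Hb library.

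In Ha vs Hb, which asks what changed between the 30-day and the 120-day HZ testis, 145 class i lncRNAs passed the count filter and 67 did not. Those called (edgeR adjusted p under 0.05 and more than 1 log2 unit) numbered 133, with 108 higher at 120 days and 25 lower, while 12 were tested and not called. A fit by limma of log2(FPKM + 1) called 94 higher and 7 lower, which is 69.7% of the tested members against 29.2% of all lncRNAs. Over all 2909 lncRNAs tested, edgeR called 56.2%, 38.6% higher and 17.6% lower. Of the 145, 93 had no more than 3 counts in every Ha library and passed the filter only through Hb, so a difference was fixed for them by the filter. Classes u and x also had most of their members at the floor at 30 days, and whether class i differed from them was not tested. The median fitted log2 fold change of the tested members was 7.42, or 3.79 with the members at the floor set to their lower bound, beside 0.57 for all lncRNAs tested. The 52 tested members above the floor in Ha gave 15 higher, 25 lower and 12 not called. Scaling by the mRNA libraries in place of the lncRNA libraries moved that 0.57 to 1.27, a shift of 0.70.

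La vs Lb gave the same picture in the other breed. Here 140 members were tested and 72 were not, and 129 were called, with 107 higher at 120 days and 22 lower. By limma on log2(FPKM + 1), 87 were higher and 13 lower, which is 71.4% of the tested members against 27.1% of all lncRNAs. Of all 2988 lncRNAs tested, edgeR called 61.1%, 41.8% higher and 19.3% lower. The filter was passed only through Lb by 92 of the 140, and the 48 others gave 15 higher, 22 lower and 11 not called. The median log2 fold change of the members was 7.17, or 3.36 with floor members at their bound, beside 0.68 over all lncRNAs, which mRNA scaling moved to 1.23. The comparisons share no library, and 105 members were called in both, which is 78.9% of the Ha vs Hb calls and 81.4% of the La vs Lb calls. For the other assembled lncRNAs these shares were 76.4% and 77.2%, and for all lncRNAs 70.6% and 63.2%. Of the 105, 85 were higher and 20 lower at 120 days in both breeds. A rise was fixed by the filter in at least 1 breed for 75 of the 85, which were at the floor in Ha or in La, while the other 10 and the 20 that fell were above the floor in both 30-day groups.

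The class i lncRNA with the highest mean FPKM over the 12 libraries was MSTRG.13510.1 (chromosome 8, 114075539 to 114082903, plus strand), a 576 nt transcript of 3 exons inside SGMS2, which encodes a sphingomyelin synthase. Its FPKM was 0, 0 and 0.06 in Ha and 33.0, 30.8 and 39.2 in Hb, and 0, 0 and 0 in La against 27.3, 20.2 and 20 in Lb. It was thus all but absent from the 6 testes of 30 days and strong in the 6 of 120 days, with no overlap. The ratio of Hb to Ha was 1548-fold, exact 95% interval 277 to 61179 (edgeR adjusted p = 0.000136), and Lb was at least 100-fold above La, taking 3 counts in each La library as the floor (edgeR adjusted p = 6.2e-05). Such intervals and floors cover counting error only. For this and each later member with no more than 3 counts in every 30-day library compared, the rise was fixed by the filter. The adjusted p beside such a rise is therefore no support for it. SGMS2 mRNA, from the separate mRNA table, was at 1.01, 0.66 and 0.61 FPKM in Hb and 0.74, 0.71 and 0.88 in Lb, far under the lncRNA inside the gene. At 30 days the order was turned, with SGMS2 at 0.60, 0.70 and 0.64 FPKM in Ha and the lncRNA at or near 0.

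MSTRG.18504.1 (chromosome 13, 80820962 to 80829506, minus strand) lies inside CLSTN2, the gene of a synaptic membrane protein of the calsyntenin family, and has 4 exons and 1052 nt. It measured 0.03, 0.03 and 0 FPKM in Ha, 31.6, 10.7 and 35.4 in Hb, 0, 0 and 0.03 in La and 21.9, 17.9 and 16.7 in Lb. All 120-day libraries were high, Hb2 the lowest of them, and no 30-day library held more than 1 count. Hb over Ha came to 1036-fold, exact 95% interval 286 to 8557 (edgeR adjusted p = 0.00022), and Lb over La to 1392-fold, exact 95% interval 250 to 55005 (edgeR adjusted p = 1.69e-05). CLSTN2 mRNA was also higher at 120 days, at 0.79, 0.49 and 0.90 FPKM in Ha and 0.84, 1.14 and 1.33 in Hb, with Hb1 inside the Ha range (log2 fold change 1.09, SE 0.27, edgeR adjusted p = 0.00901). Its mean FPKM was 0.727 in Ha and 1.10 in Hb, a smaller rise than in the scaled counts behind the fold change.

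MSTRG.5733.1 (chromosome 3, 112097709 to 112100621, plus strand), with 2 exons inside MAPRE3, whose protein binds growing microtubule ends, had 0, 0.05 and 0 FPKM in Ha and 21.0, 14.7 and 15.2 in Hb. In LC it had 0, 0 and 0 in La and 8.30, 8.20 and 6.28 in Lb. The 120-day libraries of both breeds were high, and those of HZ stood above those of LC without overlap. Hb over Ha was 999-fold, exact 95% interval 179 to 39492 (edgeR adjusted p = 0.000156), whereas the fall from Hb to Lb was not called (log2 fold change -1.18, SE 0.28, edgeR adjusted p = 0.0817). The host rose in HZ (log2 fold change 1.32, SE 0.27, edgeR adjusted p = 0.0036) and was not called in La vs Lb (edgeR adjusted p = 0.512).

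MSTRG.7957.1 (chromosome 5, 29793214 to 29798278, minus strand) lies inside MSRB3, a methionine sulfoxide reductase gene, and is 2101 nt long. Its levels were 0.02, 0.02 and 0.02 FPKM in Ha and 7.79, 10.96 and 5.44 in Hb, with 0.03, 0.02 and 0 in La and 4.72, 5.44 and 7.10 in Lb. Both ages were far apart in either breed, and each Ha library held 1 count. Hb over Ha was 460-fold, exact 95% interval 157 to 2231 (edgeR adjusted p = 0.000136). MSRB3 itself was steadier, at 15.02, 17.1 and 13.7 FPKM in Ha and 12.8, 18.3 and 15.8 in Hb, overlapping and under the fold threshold (log2 fold change 0.50, SE 0.14, edgeR adjusted p = 0.0138).

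MSTRG.15814.1 (chromosome 10, 66566233 to 66570103, minus strand), 715 nt, sits inside an lncRNA gene, LOC102157904, and showed 0, 0 and 0.05 FPKM in Ha and 14.3, 12.5 and 12.2 in Hb. Its LC levels were 0, 0 and 0 in La and 8.71, 10.6 and 11.6 in Lb. Only 1 count was seen in the 30-day libraries, and every 120-day library exceeded 8 FPKM. Hb over Ha was 737-fold, exact 95% interval 132 to 29138 (edgeR adjusted p = 0.00016). The known transcript of LOC102157904 averaged 0.127 FPKM in Ha and 0.773 in Hb.

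Among the named increases of La vs Lb, a pair came from FAM174B. MSTRG.12373.1 (chromosome 7, 86325945 to 86343425, minus strand) is 12366 nt long with an exon of 10023 nt, and measured 0.01, 0.02 and 0.03 FPKM in La and 8.72, 10.1 and 12.1 in Lb. The groups were far apart (log2 fold change 8.75, SE 0.47, edgeR adjusted p = 1.32e-05), and in HZ the levels were 0.16, 0.15 and 0.02 in Ha and 10.2, 11.9 and 8.58 in Hb. Unlike the members above, it was detected in every 30-day library, lowest in La and in Ha3. MSTRG.12372.1 (chromosome 7, 86309562 to 86314614, minus strand), on the same strand, had 0.01, 0 and 0.01 FPKM in La and 2.17, 3.73 and 3.33 in Lb. Its 2 counts in La gave a ratio of 515-fold, exact 95% interval 142 to 4258 (edgeR adjusted p = 2.37e-05). FAM174B mRNA moved the other way in LC, from 1.41, 1.36 and 1.34 FPKM in La to 0, 0.29 and 0 in Lb, with no overlap (log2 fold change -3.45, SE 1.04, edgeR adjusted p = 0.0161).

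MSTRG.6047.1 (chromosome 4, 4153800 to 4156865, minus strand), 2661 nt and inside COL22A1, the gene of a collagen chain of tissue junctions, had 0.01, 0.02 and 0 FPKM in La and 3.13, 4.41 and 4.09 in Lb. The LC testes at 30 days held 2 counts of it in all, and every Lb library was above 3 FPKM. Lb over La was 358-fold, exact 95% interval 98.8 to 2959 (edgeR adjusted p = 2.38e-05). In Hb it varied more, at 1.53, 6.83 and 6.08 FPKM, with Hb1 the lowest.

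MSTRG.13147.1 (chromosome 8, 55888168 to 55900754, plus strand), 2751 nt with 6 exons inside HOPX, the gene of a small homeodomain protein that binds no DNA, was among the 5 members of highest mean FPKM and was present at both ages. It measured 0.52, 0.68 and 0.76 FPKM in Ha, 19.2, 10.6 and 16.6 in Hb, 1.21, 1.39 and 0.92 in La and 9.64, 7.52 and 7.05 in Lb. The ages did not overlap in either breed, with HZ the lower breed at 30 days and the higher at 120 days. It rose in HZ (log2 fold change 4.35, SE 0.35, edgeR adjusted p = 0.000211) and in LC (log2 fold change 2.56, SE 0.27, edgeR adjusted p = 0.000201). HOPX mRNA, at 5.60, 6.07 and 6.35 FPKM in La and 11.11, 12.5 and 13.2 in Lb, rose in LC (log2 fold change 1.66, SE 0.15, edgeR adjusted p = 2.1e-05). In HZ the host was not called (log2 fold change -0.33, SE 0.28, edgeR adjusted p = 0.323), at 7.41, 7.61 and 6.22 FPKM in Ha and 4.97, 3.36 and 3.19 in Hb. Host FPKM was thus lower in every Hb library, while the scaled counts behind the fold change fell less.

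Most members that fell with age were long transcripts at low FPKM. MSTRG.8275.1 (chromosome 5, 65110173 to 65119260, minus strand) is 9048 nt long with 2 exons inside NTF3, which encodes the growth factor neurotrophin 3. Its levels were 0.70, 0.56 and 0.77 FPKM in Ha and 0.09, 0.07 and 0.11 in Hb, and 1.78, 2.75 and 0.86 in La against 0.12, 0.12 and 0.14 in Lb. Every 30-day library was above every 120-day library, and La3 was the lowest of La. It fell in HZ (log2 fold change -3.13, SE 0.34, edgeR adjusted p = 0.000531) and in LC (log2 fold change -4.01, SE 0.40, edgeR adjusted p = 0.00014). NTF3 mRNA was also lower at 120 days, at 2.2, 1.23 and 1.82 FPKM in Ha and 0.12, 0.24 and 0.24 in Hb (log2 fold change -2.91, SE 0.43, edgeR adjusted p = 0.000698).

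MSTRG.844.1 (chromosome 1, 124007554 to 124035874, minus strand), 27958 nt inside SEMA6D, a transmembrane semaphorin gene, had 1.21, 1.18 and 1.45 FPKM in Ha, 0.20, 0.27 and 0.21 in Hb, 1.98, 2.32 and 1.15 in La and 0.28, 0.19 and 0.36 in Lb. The ages were again apart in both breeds, the lowest 30-day library being La3. Its log2 fold change was -2.69 in Ha vs Hb (edgeR adjusted p = 0.000546) and -2.97 in La vs Lb (edgeR adjusted p = 0.000171). SEMA6D mRNA fell with it, from 14, 13.3 and 13.3 FPKM in Ha to 4.34, 4.29 and 2.34 in Hb (log2 fold change -1.44, SE 0.23, edgeR adjusted p = 0.00108). At these low levels a fit by limma of log2(FPKM + 1) kept the direction but not the size, with -0.89 for MSTRG.844.1 and -0.62 for MSTRG.8275.1 in Ha vs Hb, so neither passed the fold threshold there.

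PRICKLE1, a gene of planar cell polarity, holds 3 class i lncRNAs on the minus strand of chromosome 5. MSTRG.8376.1, 20146 nt long and lying from 73776930 to 73797908, had 1.31, 1.24 and 1.99 FPKM in Ha and 0.06, 0.12 and 0.15 in Hb. MSTRG.8375.2, 16670 nt long and lying from 73800086 to 73817364, had 1.52, 1.27 and 2.08 FPKM in Ha and 0.09, 0.17 and 0.17 in Hb. Both were lower in every Hb library than in any Ha library, and Ha3 was the highest HZ library for both. The log2 fold change was -4.00 for MSTRG.8376.1 (edgeR adjusted p = 0.000545) and -3.68 for MSTRG.8375.2 (edgeR adjusted p = 0.000555). The mRNA of the host fell less, from 6.34, 7.15 and 9.24 FPKM in Ha to 2.09, 3.42 and 2.49 in Hb (log2 fold change -1.09, SE 0.21, edgeR adjusted p = 0.0026).

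Further decreases of La vs Lb were MSTRG.11110.1 and MSTRG.1073.1. MSTRG.11110.1 (chromosome 6, 169935876 to 169956238, minus strand), 9799 nt inside the coding gene LOC102166622, had 3.45, 4.48 and 2.39 FPKM in La and 0.69, 0.58 and 0.61 in Lb. The LC libraries at 30 days were all higher (log2 fold change -2.68, SE 0.27, edgeR adjusted p = 0.000145), and the host, at 0.62, 0.68 and 0.48 FPKM in La, was under the lncRNA inside it. MSTRG.1073.1 (chromosome 1, 148949957 to 148972388, minus strand), 1865 nt inside TSHZ1, a zinc finger transcription factor gene, had 1.45, 1.45 and 0.94 FPKM in La and 0.13, 0.10 and 0.18 in Lb. It too was higher in every 30-day library (log2 fold change -3.48, SE 0.41, edgeR adjusted p = 0.000283), while limma on log2(FPKM + 1) gave -0.996, short of the fold threshold. TSHZ1 mRNA fell from 8.56, 8.21 and 10.4 FPKM in La to 1.64, 2.28 and 2.73 in Lb (log2 fold change -1.74, SE 0.18, edgeR adjusted p = 5.4e-05).

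The length of a member went with its presence at 30 days. With the class divided at its quartiles of length, 49 of 54 members of the shortest group (207 to 661 nt) were at the floor at 30 days alone, then 45 of 52, 41 of 53 and, in the longest group (from 1969 nt up), 14 of 53. Since a tested member at the floor at 30 days could only be called higher, the calls in the 3 shorter groups say little of direction. Their counts in Ha vs Hb were 21 higher and 0 lower of 24 tested, 26 and 0 of 30, and 40 and 3 of 45, and the longest group gave 21 and 22 of 46. In La vs Lb, from shortest to longest, they were 18 higher and 0 lower of 21, 28 and 1 of 30, 37 and 2 of 41, and 24 and 19 of 48. The median log2 fold change of the longest group was -1.06 in HZ and 1.12 in LC, opposite in sign. Of its members above the floor in the 30-day group, 10 were higher and 22 lower of 35 tested in HZ, and 10 and 19 of 34 in LC. Other assembled lncRNAs in the same ranges of length gave, in Ha vs Hb, 114 higher and 1 lower of 123, 143 and 4 of 161, 215 and 13 of 265, and 146 and 73 of 277, and their difference from class i was not tested. A longer transcript collects more fragments at the same FPKM, and its part in these counts was not tested.

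Most members with an exon of at least 5000 nt were called lower at 120 days by edgeR. In Ha vs Hb, 5 were higher at 120 days and 14 lower of 21 tested, and in La vs Lb 5 and 11 of 20, beside 17.6% and 19.3% lower over all lncRNAs tested. Limma on log2(FPKM + 1) called 7 lower in the whole class in HZ and 13 in LC. In HZ at most 7 of the 21 could therefore be lower by that fit. Other assembled lncRNAs with such an exon gave 35 higher and 26 lower of 71 in HZ and 37 and 27 of 73 in LC, and their difference from class i was not tested. A few members carried much of the class i counts. The 5 members with most counts at 30 days took 50.6% of all class i counts at that age, namely MSTRG.734.1 in the nuclear receptor gene RORA (17.8%), MSTRG.17121.16 in the RNA-binding protein gene MSI2 (10.7%), MSTRG.844.1 in SEMA6D (8.72%), and MSTRG.8376.1 (7.02%) and MSTRG.8375.2 (6.30%) in PRICKLE1. At 120 days another 5 took 58.0%, led by MSTRG.11624.4 in LOC106504386 with 23.1%. The others were MSTRG.12373.1 in FAM174B (11.01%), MSTRG.8296.1 (10.9%) and MSTRG.8296.2 (10.1%) in LOC102161833, and MSTRG.13147.1 in HOPX (2.77%). MSTRG.8296.1 and MSTRG.8296.2 share 14331 nt of exon, so how their counts divide between them is uncertain. RORA, MSI2, LOC106504386 and LOC102161833 were singled out after the values were seen.

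At most 3 class i lncRNAs shared a host, and 7 hosts reached that number, of which EPHA6 and LOC102168016 had the highest summed FPKM. EPHA6 encodes a receptor of the ephrin family. Its MSTRG.19056.1 had 8.40, 4.52 and 10.2 FPKM in Hb and 4.91, 2.13 and 1.74 in Lb, and its MSTRG.19056.2 had 2.93, 4.76 and 7.14 in Hb and 7.58, 5.36 and 2.44 in Lb. These isoforms, on the plus strand of chromosome 13 from 162609012 and 162610079 to 162616481, share 518 nt of exon, so the split between them is uncertain. Both were absent from Ha, and the 30-day LC libraries held 2 counts of MSTRG.19056.2 in La1 and nothing else. MSTRG.19056.1 was at least 44.9-fold higher in Hb than in Ha (edgeR adjusted p = 0.000623), and MSTRG.19056.2 at least 28.5-fold higher (edgeR adjusted p = 0.00101). Both passed the filter only through Hb, so a call could only be higher. The third, MSTRG.19057.1, did not pass the filter, with 12, 1 and 0 counts in Hb. EPHA6 mRNA was low throughout, at 0.23, 0.39 and 0.40 FPKM in Ha and 0.13, 0.13 and 0.22 in Hb, and was not called (log2 fold change -0.58, SE 0.36, edgeR adjusted p = 0.181).

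LOC102168016 is an lncRNA gene on chromosome 3 whose class i members lie on the minus strand between 12067423 and 12083735. MSTRG.4500.3 had 2.92, 4.41 and 3.87 FPKM in Hb and 2.1, 3.67 and 3.55 in Lb, with 0 in every 30-day library. It was therefore at least 20.6-fold higher in Hb than in Ha (edgeR adjusted p = 0.000819) and at least 14.9-fold higher in Lb than in La (edgeR adjusted p = 0.000483). MSTRG.4500.2 shares 624 nt of exon with it and was uneven, at 12.0, 0.08 and 5.19 FPKM in Hb and 0.12, 0 and 0.25 in Lb. The Hb1 library was high and Hb2 near 0, and the division of reads between the isoforms is uncertain. MSTRG.4500.1 reached 2, 11 and 12 counts in Hb, and neither of the last pair passed the filter.

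Host mRNAs were called in both directions with age. Of the 146 coding hosts, 139 were tested in Ha vs Hb and 68 (48.9%) were called, 32 higher and 36 lower at 120 days, against 51.4% called over all mRNAs. In La vs Lb 138 were tested and 73 (52.9%) called, 33 higher and 40 lower, against 47.6% over all mRNAs. Both shares were near those over all mRNAs, whose split by direction is not given here. In La vs Lb limma on log2(FPKM + 1) called 41 hosts, and its share over all mRNAs is not given here. Over the 172 pairs, the median FPKM in Ha was 0 for the lncRNA and 2.85 for the host, and in La 0 and 3.53. In Hb it was 1.05 and 1.98, and in Lb 0.997 and 2.29, the levels coming from the lncRNA and the mRNA table. The lncRNA stood above its host in 3 pairs in Ha and 4 in La, but in 75 (43.6%) in Hb and 62 (36.0%) in Lb.

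Where both partners were called, the direction was shared in some pairs and not in others. In Ha vs Hb 43 pairs were called in both tables, 25 in the same direction and 18 in opposite directions, and in La vs Lb 48 pairs, 31 and 17. Across pairs, which are not independent replicates, the log2 fold changes of lncRNA and host had a Pearson correlation of 0.20 and a Spearman correlation of 0.18 in Ha vs Hb (111 pairs). In La vs Lb these were 0.18 and 0.13 (103 pairs). Over the pairs whose lncRNA was above the floor in the 30-day group they were 0.07 and 0.10 in HZ (42 pairs) and -0.05 and 0.33 in LC (36 pairs). In 25 pairs both partners were called in both breeds, 18 in the same direction and 7 in opposite directions. The lncRNA was higher at 120 days in 17 of them, of which 16 were at the floor in Ha or in La, so that their direction was fixed by the filter and the pair shows the direction of the host alone. The 9 pairs whose lncRNA was above the floor in both 30-day groups were 8 in the same direction and 1 in opposite directions.

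Of those 25, 11 rose together, in the hosts CLSTN2, FAM155A, FAM163A, LOC100523747, MACROD2, MKL1, PIK3CD, RBFOX1, RTKN2, SPATA17 and TPP2. Among these hosts the mRNA of LOC100523747 rose most in HZ (log2 fold change 4.42) and that of SPATA17 most in LC (log2 fold change 3.72). A further 7 fell together, in ETV6, NTF3, PITPNM3, SEMA6D, TSHZ1 and, with 2 lncRNAs, PRICKLE1. In 6 pairs the lncRNA rose while the host fell, in CHST11, DAB1, GPC6, HIPK2, MEIS1 and NPAS3. GPC6, which encodes a cell surface proteoglycan, fell by 2.67 on the log2 scale in HZ and by 1.96 in LC. MSTRG.16256.2 inside GPC6 went from 0 in each Ha library to 0.72, 4.43 and 1.55 FPKM in Hb. MEIS1, a homeodomain transcription factor gene, fell by 1.54 in HZ and by 1.98 in LC, while its MSTRG.5418.1 went from 0 in each Ha library to 5.34, 4.22 and 2.03 FPKM in Hb. DNM3, a dynamin gene, gave the only reverse case among the 25, its mRNA rising by 2.30 in both HZ and LC while MSTRG.14910.1 fell by 2.56 and 2.73. These pairs were chosen after their values were seen, and the strand of each lncRNA against its host could not be read, as no gene strand was at hand.

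Between breeds at 30 days few class i lncRNAs could be compared. In Ha vs La 42 passed the filter and 170 did not, and 6 were called, 0 higher and 6 lower in LC, against 6.35% of all lncRNAs tested. The count was 1 without Ha1, 1 without Ha2, 5 without Ha3, 3 without La1, 2 without La2 and 1 without La3. DESeq2 called 12, 4 higher and 8 lower in LC, and limma on log2(FPKM + 1) called 0 higher and 2 lower. With at least 10 counts in each library of either group 2 were higher and 7 lower, and with no filter 2 and 6. By edgeR 14.3% of the members tested were called. The share was 28.6% by DESeq2 against 10.2% of all lncRNAs, and 4.76% against 3.01% by limma on log2(FPKM + 1). It was 22.5% against 11.105% with the filter of 10 counts and 6.84% against 2.24% with no filter. With the replicate number as a block it was 0% against 0.429%, and with the 12 libraries fitted together 2.79% against 2.83%. Whether class i differed from other lncRNAs at 30 days was not tested. MSTRG.15133.1 (chromosome 9, 135972346 to 135980691, plus strand), 8292 nt inside the lncRNA gene LOC110255548, had 1.28, 1.54 and 1.42 FPKM in Ha and 0.24, 0.49 and 0.20 in La. Every HZ library was above every LC library (log2 fold change -2.30, SE 0.29, edgeR adjusted p = 0.00788), and the call held without any single library. Under limma on log2(FPKM + 1) it was lost, with a log2 fold change of -0.89, and the highest adjusted p over the alternatives was 0.0671. At 120 days it was low in both breeds, at 0.12, 0.23 and 0.13 in Hb and 0.17, 0.08 and 0.08 in Lb.

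MSTRG.19349.1 (chromosome 13, 208319074 to 208320179, minus strand), 1080 nt inside the coding gene LOC100623720, separated the breeds at both ages. Its FPKM was 0.87, 0.79 and 0.36 in Ha and 0, 0.04 and 0 in La, then 3.65, 2.01 and 6.03 in Hb and 0, 0.03 and 0 in Lb. All 6 HZ boars expressed it, and in LC a single count was seen in La2 and another in Lb2. It passed the filter at both ages only through HZ, so a call could only be lower in LC. Ha over La was 63.4-fold, exact 95% interval 10.98 to 2540 (edgeR adjusted p = 0.0192), and Hb over Lb 385-fold, exact 95% interval 68.6 to 15231 (edgeR adjusted p = 0.00901). At 30 days the edgeR adjusted p was 0.106 without Ha1, 0.0785 without La1, 0.067 without La2 and 0.0822 without La3, and at 120 days it was 0.0549 without Lb1, 0.0579 without Lb2 and 0.0603 without Lb3. Without Ha2 it did not pass the 30-day filter, and limma on log2(FPKM + 1) gave -0.71 at 30 days, under the fold threshold. The host mRNA went the other way, with 8.20, 8.84 and 4.66 FPKM in Hb and 27.7, 33.8 and 38.4 in Lb, higher in every LC library (log2 fold change 2.09, SE 0.25, edgeR adjusted p = 0.00953). This was the only pair with both partners called between breeds.

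MSTRG.17205.1 (chromosome 12, 38824988 to 38832906, plus strand), 1134 nt, lies inside ACACA, the acetyl-CoA carboxylase gene of fatty acid synthesis. It had 1.60, 1.5 and 1.10 FPKM in Ha and 0.18, 0.04 and 0.15 in La, all HZ libraries higher (log2 fold change -3.49, SE 0.60, edgeR adjusted p = 0.0199). That adjusted p by edgeR was 0.0744 without Ha1, 0.0702 without Ha2, 0.0749 without La1 and 0.0725 without La3. ACACA mRNA, at 40.3, 41.8 and 39.6 FPKM in Ha and 39.9, 35.7 and 38.3 in La, was not called (edgeR adjusted p = 0.326). The remaining calls of Ha vs La, named after their values were seen, were MSTRG.11624.4, MSTRG.1861.1 in LOC102161373 and MSTRG.8375.1 in PRICKLE1. MSTRG.1861.1 had 3.25, 3.24 and 3.23 FPKM in Ha and 0.39, 1.15 and 0.64 in La, the HZ libraries alike and all higher (log2 fold change -2.25, SE 0.41, edgeR adjusted p = 0.024). MSTRG.8375.1 shares 8486 nt of exon with MSTRG.8375.2, so its 41, 106 and 64 counts in Ha and 5, 0 and 0 in La are uncertain. MSTRG.11624.4 had 184, 136 and 18 counts in Ha and 0, 5 and 0 in La, with Ha3 lowest of HZ (edgeR adjusted p = 0.0499). Over the alternatives run, the highest adjusted p was 0.126 for MSTRG.1861.1, 0.173 for MSTRG.8375.1 and 0.152 for MSTRG.11624.4. Of 14 alternatives, the call was lost in 7 for MSTRG.1861.1, 8 for MSTRG.8375.1 and 9 for MSTRG.11624.4.

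At 120 days 177 class i lncRNAs were tested in Hb vs Lb and 35 were not, and 6 were called, 1 higher and 5 lower in LC, against 3.14% of all lncRNAs tested. The count was 2 without Hb1, 4 without Hb2, 2 without Hb3, 1 without Lb1, 1 without Lb2 and 0 without Lb3. DESeq2 called 24, 9 higher and 15 lower in LC. Limma called 12 on log2(FPKM + 1), 4 higher and 8 lower, or 14 on log2(FPKM + 0.1), 3 and 11. Requiring at least 10 counts in each library of either group gave 16, 4 higher and 12 lower. By edgeR 3.39% of the members tested were called. The share was 13.6% by DESeq2 against 8.60% of all lncRNAs, 6.78% against 3.08% by limma on log2(FPKM + 1) and 9.70% against 5.96% with the filter of 10 counts. Whether class i differed from other lncRNAs in this was not tested.

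MSTRG.14872.1 (chromosome 9, 108439212 to 108441832, minus strand), inside EPDR1, was the member higher in LC, at 0.18, 0.08 and 0.18 FPKM in Hb and 1.57, 1.31 and 0.98 in Lb. Every Lb library was above every Hb library (log2 fold change 3.10, SE 0.49, edgeR adjusted p = 0.0273). The call was lost on leaving out any library, the adjusted p by edgeR being 0.0834 without Hb1, 0.0626 without Hb2, 0.071 without Hb3, 0.12 without Lb1, 0.101 without Lb2 and 0.0743 without Lb3. It was also lost under limma on log2(FPKM + 1), with a log2 fold change of 0.99, and in a fit of the 12 libraries together (edgeR adjusted p = 0.131). EPDR1 mRNA was 1.64, 3.25 and 1.39 FPKM in Hb and 4.50, 4.88 and 5.26 in Lb, LC being higher without a call (edgeR adjusted p = 0.0749).

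MSTRG.8129.1 (chromosome 5, 57386435 to 57388490, minus strand), 1038 nt inside RERG, the gene of a RAS-like growth inhibitor, was at 2.51, 3.08 and 2.68 FPKM in Hb and 0.09, 0 and 0.04 in Lb, and at 0 in all 30-day libraries. The HZ boars of 120 days all expressed it, and Lb held 3, 0 and 1 counts. Lb as a group lay at the floor and the filter was passed only through Hb, so a call could only be lower in LC. Hb over Lb was 68.8-fold, exact 95% interval 26.6 to 255 (edgeR adjusted p = 0.0151). The adjusted p by edgeR was 0.0951 without Lb3. RERG mRNA overlapped between the breeds, at 2.08, 1.48 and 1.06 FPKM in Hb and 2.17, 1.69 and 2.61 in Lb.

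MSTRG.22493.1 (chromosome 17, 23951865 to 23959304, minus strand), 1105 nt inside MACROD2, which encodes an ADP-ribose hydrolase, had 6.64, 5.48 and 8.35 FPKM in Hb and 1.47, 1.24 and 0.70 in Lb. HZ was higher in every 120-day library (log2 fold change -2.58, SE 0.40, edgeR adjusted p = 0.0273), and the adjusted p was 0.0759 without Hb1, 0.0532 without Hb2, 0.069 without Hb3, 0.0811 without Lb1, 0.0994 without Lb2 and 0.0655 without Lb3 by edgeR. MACROD2 mRNA was 0.16, 0.30 and 0.29 FPKM in Hb and 0.31, 0.38 and 0.31 in Lb and was not called (edgeR adjusted p = 0.664). The other calls, named after their values were seen, were MSTRG.15968.1 in ALOX5AP, a gene of leukotriene synthesis, and MSTRG.22523.1 in SLC24A3, a cation exchanger gene. MSTRG.15968.1 had 1.48, 1.3 and 4.27 FPKM in Hb and 0.20, 0.27 and 0.22 in Lb, and MSTRG.22523.1 had 3.46, 1.48 and 2.80 in Hb and 0.65, 0.53 and 0.96 in Lb. HZ was above LC in every library for both, and the highest adjusted p over the alternatives was 0.164 for MSTRG.15968.1 and 0.167 for MSTRG.22523.1. The call was lost in 8 of 14 alternatives for MSTRG.15968.1 and in 11 of 14 for MSTRG.22523.1.

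Few host mRNAs were called between breeds. In Ha vs La 16 of 139 tested hosts were called, 10 higher and 6 lower in LC, against 7.62% of all mRNAs, with 9 called without La1, 9 without La3 and 3 by limma on log2(FPKM + 1). In Hb vs Lb 5 of 136 were called, 4 higher and 1 lower, against 3.85%, with 10 without Hb2, 1 without Hb3, 3 without Lb1, 1 without Lb2 and 1 without Lb3. Among marker lists, 5 of the 10 peritubular and stromal markers, led by COL3A1, were higher in Lb than in Hb, at 102, 101 and 66.5 FPKM in Hb and 530, 516 and 562 in Lb when summed. Of the endothelial and of the macrophage markers 1 each was also higher in Lb, and 1 spermatid marker was lower, the spermatid list summing to 5280, 5793 and 7667 FPKM in Hb and 3909, 3342 and 3575 in Lb without overlap. The part of these lists in the breed differences was not tested. At 30 days 4 of the 8 spermatocyte markers, led by PIWIL1, were lower in La than in Ha, the list summing to 10.5, 10.96 and 6.50 FPKM in Ha and 5.40, 4.76 and 4.41 in La, with 1 spermatogonia marker lower, 3 Sertoli markers higher and 1 Leydig marker higher.

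Whether the age difference itself differed between breeds was tested by the interaction of breed and age over the 12 libraries. Of 179 class i lncRNAs tested, edgeR called 0, against 0.0257% of all lncRNAs. At an unadjusted p under 0.05 there were 15, 10 with the age change more positive in LC and 5 in HZ, against 11.4% of all lncRNAs. DESeq2 called 5 of 172, against 3.58%, namely the members in HOPX, LOC106504386, RGS3, CHD2 and RERG, which were named after their values were seen. The member in RERG had 0 counts in every 30-day library, so its breed difference at 30 days could not be estimated. Without Ha3, edgeR called 2, MSTRG.11624.4 in LOC106504386 and MSTRG.12373.1 in FAM174B, both of which had far fewer counts in Ha3 than in Ha1 and Ha2. The lowest edgeR adjusted p among the members with all libraries was 0.101.

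Many markers of the somatic lists fell with age, as did, by edgeR, most class i lncRNAs with an exon of at least 5000 nt. The part of cell content in that fall was not tested. Of 7 Leydig markers, led by INSL3, 4 fell in HZ and 5 in LC, the list summing to 5487, 5009 and 4883 FPKM in Ha, 2180, 189 and 128 in Hb, 7771, 5341 and 6281 in La and 2708, 4057 and 1712 in Lb. Of the 10 peritubular and stromal markers 8 fell in HZ, and in LC 5 fell and 1 rose, with 976, 950 and 978 FPKM in Ha and 1341, 1224 and 1512 in La. Every 30-day library exceeded every 120-day library in the stromal list, and Hb1 was far above Hb2 and Hb3 in the Leydig list. The 5 endothelial markers, led by VWF, had 5 lower in HZ and 3 in LC, and summed to 93.7, 94.5 and 84.3 FPKM in Ha, 13.9, 26.7 and 15.7 in Hb, 98.0, 78.3 and 91.0 in La and 28.2, 45.7 and 28.6 in Lb. The 5 macrophage markers, led by CSF1R, had 5 lower in HZ and 4 in LC, and summed to 40.3, 32.7 and 32.6 FPKM in Ha, 3.49, 4.56 and 2.24 in Hb, 38.3, 33.0 and 36.3 in La and 5.91, 9.64 and 9.91 in Lb. Sertoli markers had 4 of 8 lower in each breed and summed to 181, 288 and 216 FPKM in Hb, 1508, 1770 and 1632 in La and 311, 385 and 371 in Lb.

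Germ cell lists went the other way or were mixed. The spermatocyte list summed to 151, 157 and 134 FPKM in Hb and 116, 110 and 124 in Lb, above every 30-day library. Of 11 spermatogonia markers, led by DDX4, 3 rose and 6 fell with age in HZ, and 4 rose and 5 fell in LC. NANOS2 was at or under 3 counts in every 120-day library, and the list summed to 76.0, 73.3 and 59.5 FPKM in Ha, 177, 182 and 173 in Hb, 41.2, 40.6 and 43.9 in La and 155, 140 and 162 in Lb. The rise of the sum rested mostly on DDX4, at 6.76, 7.83 and 6.61 FPKM in Ha and 145.57, 133.92 and 137.34 in Hb. In LC, DDX4 had 4, 4.04 and 5.14 FPKM in La and 109.5, 96.83 and 115.62 in Lb.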

How the data were processed

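The authors trimmed reads of rRNA-depleted libraries with fastp 0.18.0, removed rRNA with Bowtie2 2.2.8, aligned with HISAT2 2.1.0 and assembled transcripts with StringTie 1.3.4. For each lncRNA and each mRNA the files as deposited give an estimated count and the FPKM (fragments per kilobase, scaled to library size, rounded to 2 decimals) that the authors computed with StringTie, and the tool behind the counts is not given in the sources used here. Rounded counts were tested with edgeR 4.0.16 in R 4.3.3 (quasi-likelihood test, filterByExpr with a minimum count of 10, TMM, Benjamini-Hochberg over the whole table). A call needed an adjusted p under 0.05 and a log2 fold change beyond 1 in size. Fold changes are the second group over the first, and SE is the log2 fold change over the root of F. They rest on TMM-scaled counts, so for host mRNAs they can differ from the FPKM printed beside them. MSRB3, for example, averaged 15.3 FPKM in Ha and 15.6 in Hb, with a log2 fold change of 0.50. Host calls near the threshold, and pair directions that rest on them, can depend on this scale. A host is the RefSeq gene of Sscrofa11.1 whose span holds the whole lncRNA, mRNA-table genes first, then the shortest.

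DESeq2 1.42.0, limma 3.58.1, other filters and scalings, and leaving out each library were the alternatives. Members and lists were chosen with earlier results of these data known. Transcripts were named by rule: in each age comparison the 4 of smallest adjusted p among increases and among decreases, called and not overlapping, at most 1 per assembly gene, and in each breed comparison the 3; the 5 with the highest mean FPKM; the members of the hosts with most of them, ties going, once values were seen, to the highest summed FPKM; and of those at or under 3 counts at 1 age, the 2 highest at the other. Part of the rule for interaction calls and for transcripts named in the paper found none. No genome sequence, intron or gene strand was at hand, so strand against the host, intron length, base composition, splice sites, polyadenylation signals and 5′ motifs were not examined.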

Additional observations from a re-analysis of the deposited data

Results flagged for a closer look

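In 2 class i lncRNAs the breeds stood apart in opposite directions at the 2 ages, with no overlap at either age in counts scaled by TMM. No share over all lncRNAs is at hand for this pattern, so the number is no result about the class. Neither interaction was called by edgeR. For MSTRG.13147.1 in HOPX, LC was above HZ at 30 days and below it at 120 days, and the interaction of breed and age was -1.84 log2 units (SE 0.40, edgeR adjusted p = 0.101, DESeq2 adjusted p = 0.0014). For MSTRG.1840.7 in RGS3, a regulator of G protein signalling, FPKM was 1.26, 1.12 and 1.62 in Ha, 0.98, 1.12 and 0.84 in La, 0.16, 0.31 and 0.47 in Hb and 1.18, 0.62 and 1.06 in Lb. At 30 days the FPKM of Ha2 and La2 were equal and only the TMM-scaled counts put every LC library below HZ, while at 120 days LC was above HZ on both scales. The interaction was 1.98 log2 units (SE 0.50, edgeR adjusted p = 0.139, DESeq2 adjusted p = 0.0159).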

How the results depend on the processing

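The class i calls of Ha vs Hb (133, from 101 to 165 over the alternatives) and La vs Lb (129, from 100 to 164) stayed within 1.5 times in total. Their decreases did not, since limma on log2(FPKM + 1) called 7 lower in place of 25 in Ha vs Hb and 13 in place of 22 in La vs Lb. DESeq2 called 12 in Ha vs La, 24 in Hb vs Lb and 5 in the interaction. With limma on log2(FPKM + 1) they were 2 at 30 days and 12 at 120 days between breeds, and for hosts 41 in La vs Lb and 3 in Ha vs La. With limma on log2(FPKM + 0.1), Hb vs Lb gave 14, and with at least 10 counts in each library of either group 16. With the replicate number as a block, Ha vs La and Hb vs Lb gave 0 class i calls and Hb vs Lb 2 hosts, and libraries of the same number were not alike (correlations from -0.04 to 0.05). Leaving out 1 library gave 1 to 5 class i calls between breeds at 30 days, 0 to 4 at 120 days and 0 to 2 in the interaction, and 9 to 19 and 1 to 10 hosts in the breed comparisons. The cause was not tested. Without the 4 members with most counts at 120 days, an alternative chosen after seeing the data, the difference in class i share with age was 0.407 points in HZ and -0.502 points in LC. Leaving them out lowers the 120-day share by construction, so the negative sign in LC is no test of the age difference. Of 35 log2 fold changes of named members, 25 kept call and direction under every alternative. Over 489 alternatives 451 kept it, 38 lost the call and 0 reversed. Many of these named members lay at the floor in 1 of the groups compared and passed the filter only through the other. Their direction could not reverse, so these counts say little of stability for them. Hosts on the same strand only could not be run, since no gene strand was at hand.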
